A study of Mus musculus with 33 samples.

Results

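Ibsp, Dmp1, Mepe and Spp1 encode bone sialoprotein, dentin matrix protein 1, matrix extracellular phosphoglycoprotein and osteopontin, 4 members of the SIBLING family (small integrin-binding ligand, N-linked glycoproteins) of secreted bone matrix phosphoproteins. They were taken by symbol from the deposited table of read counts, where they are 4 of 17982 genes, and followed through induced osteoblasts (iOB), osteoblasts derived from the skull vault (calvarial-OB) and fibroblasts. All 4 passed the filter on low counts that left 13438 genes to test. They were also read from the authors' deposited tables that set iOB, and the GFP-positive fraction sorted from iOB cultures (iOB GFP+), against fibroblasts. In iOB and in calvarial-OB the transcripts of Ibsp and Dmp1 were far above their level in fibroblasts, while that of Spp1 was below it. Mepe was readily counted in calvarial-OB, barely counted in iOB and not counted in fibroblasts.

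The study held 33 samples, of which 15 were poly-A RNA libraries in 5 groups of 3, and 9 of these, from 3 groups, were in the count table. The iOB were made by transducing tail-tip fibroblasts of Col2.3GFP mice with lentivirus that carried transcription factor genes, which the labels do not name, and were later kept in osteogenic medium. The day of harvest is not stated, and no group received the virus or the medium alone, so that factors, virus, medium and time in culture cannot be told apart. The iOB GFP+ cells were sorted from such cultures by their green fluorescence. In Col2.3GFP mice a fragment of a collagen type I promoter drives green fluorescent protein in cells of the osteoblast lineage, and both the iOB and the fibroblasts came from these animals. The calvarial-OB are described as coming from calvarial progenitor cells, and their titles place them in a second dataset, so that a difference between datasets and one between cell types cannot be told apart. The fibroblasts were expanded from tail tips of Col2.3GFP mice for 2 passages. Age, sex and strain background are not given. The labels do not say whether the 3 libraries of a group came from separate cultures or animals, so the p-values below measure only the spread between these libraries, which may be technical.

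Bone matrix is a collagen scaffold that fills with calcium phosphate crystals, and SIBLING proteins are the acidic, heavily phosphorylated proteins that bind those crystals. All carry an Arg-Gly-Asp motif through which cells attach by integrins. Bone sialoprotein is made by osteoblasts at the start of mineralization and promotes crystal formation. Dentin matrix protein 1 is made mainly by osteocytes, the cells embedded in bone, and its loss in mice and humans causes hypophosphatemic rickets. Matrix extracellular phosphoglycoprotein is an osteocyte product whose C-terminal acidic peptide restrains mineral deposition. Osteopontin slows crystal growth, is made by osteoblasts and osteoclasts, and is also made by macrophages and by activated fibroblasts.

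The 4 genes lie side by side on mouse chromosome 5, and with Dspp, the dentin sialophosphoprotein gene, they form 1 cluster. In the RefSeq annotation of build GRCm38.p6 the order of protein-coding genes there is Sparcl1, Dspp, Dmp1, Ibsp, Mepe, Spp1 and Pkd2. The 250 bases before each start are shown because Ibsp, Dmp1 and Mepe were higher and Spp1 was lower in the same libraries, although the genes are neighbours. All lie on the + strand in RefSeq, build GRCm38.p6. The Ibsp window is chr5:104299037-104299286. Dmp1 has 2 annotated starts, with windows at chr5:104197325-104197574 and chr5:104202367-104202616. The Mepe window is chr5:104325079-104325328. Of the 2 Spp1 starts, the upstream window, chr5:104434861-104435110, is printed. Capitals mark every match to the 6 motifs described after the sequences.
Ibsp: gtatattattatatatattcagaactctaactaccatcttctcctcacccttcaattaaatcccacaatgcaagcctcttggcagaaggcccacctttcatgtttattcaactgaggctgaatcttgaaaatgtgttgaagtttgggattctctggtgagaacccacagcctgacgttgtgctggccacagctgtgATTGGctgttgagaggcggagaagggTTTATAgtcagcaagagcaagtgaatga
Dmp1, upstream start: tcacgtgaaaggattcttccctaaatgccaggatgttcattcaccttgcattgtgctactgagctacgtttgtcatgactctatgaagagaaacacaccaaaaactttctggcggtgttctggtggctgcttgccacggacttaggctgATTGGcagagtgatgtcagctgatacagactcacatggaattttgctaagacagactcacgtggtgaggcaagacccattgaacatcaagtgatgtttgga
Dmp1, downstream start: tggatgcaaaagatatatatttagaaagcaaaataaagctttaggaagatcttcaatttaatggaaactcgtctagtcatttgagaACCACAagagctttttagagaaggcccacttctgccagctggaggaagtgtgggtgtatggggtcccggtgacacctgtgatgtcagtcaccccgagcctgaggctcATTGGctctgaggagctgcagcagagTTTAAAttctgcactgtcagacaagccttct
Mepe: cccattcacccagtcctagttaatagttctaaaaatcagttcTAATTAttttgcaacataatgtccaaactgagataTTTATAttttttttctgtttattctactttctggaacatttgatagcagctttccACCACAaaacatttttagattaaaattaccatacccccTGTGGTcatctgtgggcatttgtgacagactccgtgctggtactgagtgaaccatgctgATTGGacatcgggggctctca
Spp1, upstream start: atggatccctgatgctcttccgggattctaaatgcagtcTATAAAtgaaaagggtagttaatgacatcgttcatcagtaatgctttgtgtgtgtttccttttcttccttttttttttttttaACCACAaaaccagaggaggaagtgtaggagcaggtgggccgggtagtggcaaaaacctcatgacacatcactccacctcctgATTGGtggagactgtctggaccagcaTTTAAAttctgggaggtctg

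The motifs were chosen after these windows had been read, and were searched on both strands of the 250 bases. No match in these windows shared a base with another. The CCAAT box (CCAAT or ATTGG), bound by the general factor NF-Y, was in all 5 printed windows, always as ATTGG, and in 33.8% of the 32851 RefSeq windows of this length. Its first base stood 54 bases before the Ibsp start, 101 and 57 bases before the upstream and downstream Dmp1 starts, 21 bases before the Mepe start and 46 bases before the Spp1 start. The core of the RUNX site (ACCACA or TGTGGT) was in 14.0% of all windows. It stood 164 bases before the downstream Dmp1 start, 118 and 80 bases before the Mepe start and 128 bases before the Spp1 start, and these letters were not in the Ibsp window or the upstream Dmp1 window. The TATA box letters (TATAAA or TTTATA), present in 12.4% of windows, stood 28 bases before the Ibsp start, 173 before the Mepe start and 211 before the Spp1 start. The letters TTTAAA, in 12.1% of windows, stood 31 bases before the downstream Dmp1 start and 20 before the Spp1 start. The homeodomain core TAATTA, in 4.84% of windows, was 208 bases before the Mepe start, and the AP-1 site TGANTCA, in 6.75%, was in none of the members' windows. The window of the downstream Spp1 start, which is not printed, held only TAATTA, 122 bases before that start. The count table gives 1 value per gene and cannot tell which start was used. Each match is a description of letters and not evidence of binding.

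The 9 libraries held from 5646299 to 15023771 counts. Precursor ribosomal RNA (Rn45s) took 5.08% to 5.77% of the counts in the iOB and calvarial-OB libraries and 2.27% to 10.9% in the fibroblast libraries. Libraries of 1 group correlated at 0.967 to 0.991 across genes. Calvarial-OB replicate 1 gave the lower values, 0.970 and 0.967 with the other two libraries of its group. Levels below are read counts scaled to library size (CPM) on TMM-scaled library sizes. Since transcript lengths are not given, the levels of different genes are not compared. Fold changes are log2 values with the standard error (SE) from edgeR's quasi-likelihood test over all 13438 genes, and a gene was called at an adjusted p below 0.05. All samples are bulk RNA, so fewer cells of a type and less RNA per cell cannot be told apart.

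Ibsp, whose product starts mineral formation in osteoblast matrix, had 954.1, 1109.7 and 1195.2 CPM in the iOB libraries, 2596, 3137 and 2946 CPM in the calvarial-OB libraries, and 1.88, 2.12 and 9.21 CPM in the fibroblast libraries. No library of 1 group reached the range of another, and every calvarial-OB library stood above every iOB library. Ibsp averaged 1086 ± 122 CPM in iOB, 2893 ± 275 CPM in calvarial-OB and 4.41 ± 4.16 CPM in fibroblasts (SD, n = 3 each). Against fibroblasts the log2 fold change was 7.85 ± 0.45 in iOB (SE, 95% interval 6.88 to 8.83, edgeR adjusted p = 1.5e-07), the 39th highest of the 13438 tested genes. In calvarial-OB it was 9.27 ± 0.47 (8.24 to 10.29, edgeR adjusted p = 3.6e-08), the 33rd highest. The fibroblast baseline was uneven. Fibroblast replicate 3 held 111 Ibsp counts, against 20 and 15 in replicates 1 and 2, and without it the 2 log2 fold changes were 9.12 and 10.50. Osteocalcin (Bglap) and Phex, which are also osteoblast-lineage genes, were highest in that library too, at 3.82 and 0.913 CPM, against 0.754 and 1.27 CPM for Bglap and 0.283 and 0 CPM for Phex in fibroblast replicates 1 and 2. The part of such transcripts in the fibroblast value was not tested.

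Between the 2 osteoblast groups, Ibsp was lower in iOB than in calvarial-OB, with a log2 fold change of -1.41 ± 0.32 (95% interval -2.11 to -0.71, edgeR adjusted p = 0.0034). The ratio of the summed levels was 0.374. With DESeq2 the size was similar, at -1.40, but the gene was not called (adjusted p = 0.064, where the alternatives ran from 3.5e-05 to 0.064).

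Dmp1, the early osteocyte protein that regulates mineral and phosphate, had 16.6, 31.3 and 45.0 CPM in the iOB libraries, 19.5, 47.2 and 35.0 CPM in the calvarial-OB libraries, and 1.04, 0.425 and 0.332 CPM in the fibroblast libraries. The 2 osteoblast groups covered the same range, and both were clear of the fibroblasts. The fibroblast values rest on 11, 3 and 4 counts. Mean levels were 31.0 ± 14.2 CPM in iOB, 33.9 ± 13.9 CPM in calvarial-OB and 0.598 ± 0.383 CPM in fibroblasts (SD, n = 3 each). The log2 fold change against fibroblasts was 5.64 ± 0.55 in iOB (95% interval 4.45 to 6.84, edgeR adjusted p = 7.1e-06) and 5.78 ± 0.54 in calvarial-OB (4.60 to 6.96, edgeR adjusted p = 3.2e-06). Without fibroblast replicate 1, which held 11 of the 18 fibroblast counts, these values were 6.34 and 6.47. Dmp1 varied more within the osteoblast groups than Ibsp did, with a coefficient of variation of 45.8% in iOB and 41.0% in calvarial-OB, against 11.2% and 9.49% for Ibsp in the same libraries. iOB and calvarial-OB were not called different (log2 fold change -0.13 ± 0.35, edgeR adjusted p = 0.77), and the 95% interval, -0.89 to 0.62, leaves room for a difference of either sign.

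Mepe, the osteocyte gene whose product holds back mineral, separated the 2 osteoblast groups. It had 1, 6 and 1 counts in the iOB libraries (0.151, 0.688 and 0.164 CPM), 107, 115 and 135 counts in calvarial-OB (13.0, 14.1 and 8.79 CPM), and 0 counts in all 3 fibroblast libraries. A count of 0 allows up to 0.283, 0.425 and 0.249 CPM in the 3 fibroblast libraries at a floor of 3 counts, covering counting error only. iOB replicates 1 and 3 lay below each of those floors. Only iOB replicate 2 lay above them. Mepe was at least 111-fold higher in calvarial-OB than in fibroblasts, measured against 3 counts over the summed fibroblast libraries (edgeR adjusted p = 1.7e-06). This bound was 71.6, 84.9 and 66.2 without fibroblast replicate 1, 2 or 3, since it scales with the fibroblast depth that remains. Against calvarial-OB, iOB had a log2 fold change of -4.96 ± 0.45 (95% interval -5.95 to -3.96, edgeR adjusted p = 1.6e-05), a ratio of summed levels of 0.0332. Without iOB replicate 2 the log2 fold change was -6.12.

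For iOB against fibroblasts the Mepe data are thin, with 8 counts in all against 0. The gene was called higher in iOB at an edgeR adjusted p of 0.017. The bound on its fold change, against 3 counts over the summed fibroblast libraries, was 3.70-fold. It leaves out the counting error of the 8 iOB counts. Without iOB replicate 2 the call was lost (edgeR adjusted p = 0.085, where the alternatives ran from 0.0051 to 0.085), and the bound fell to 1.56-fold. Leaving out fibroblast replicate 1 or 3 brought the bound to 2.38-fold or 2.20-fold with the call kept.

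Spp1, the osteopontin gene, was the member that stood lower in both osteoblast groups than in fibroblasts. It had 402.7, 603.4 and 546.1 CPM in the iOB libraries, 589.8, 431.9 and 527.4 CPM in the calvarial-OB libraries, and 2705, 2284 and 2209 CPM in the fibroblast libraries. All 6 osteoblast libraries fell into 1 range, well under the lowest fibroblast library. The means were 517 ± 103 CPM in iOB, 516 ± 79.5 CPM in calvarial-OB and 2399 ± 267 CPM in fibroblasts (SD, n = 3 each). The log2 fold change against fibroblasts was -2.21 ± 0.17 in iOB (95% interval -2.58 to -1.85, edgeR adjusted p = 1.1e-06) and -2.22 ± 0.17 in calvarial-OB (-2.58 to -1.85, edgeR adjusted p = 5.7e-07). Spp1 thus stood at 0.218 and 0.216 of its fibroblast level. Between iOB and calvarial-OB the log2 difference was 0.00 ± 0.16, with a 95% interval of -0.35 to 0.35 (edgeR adjusted p = 0.99). Transcripts used as markers of macrophages, another known source of osteopontin, were counted in the same libraries. Their summed level was 2333 to 3784 CPM in iOB and 3796 to 7029 CPM in calvarial-OB, against 42.3 to 84.7 CPM in fibroblasts, and all 15 tested markers were higher in both osteoblast groups. Cd163, which had 1 count in all over the fibroblasts, was the only one at 0 counts in any library. Spp1 and these markers therefore moved in opposite directions, and the part of macrophage RNA in the Spp1 level was not tested.

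**Figure D1:**
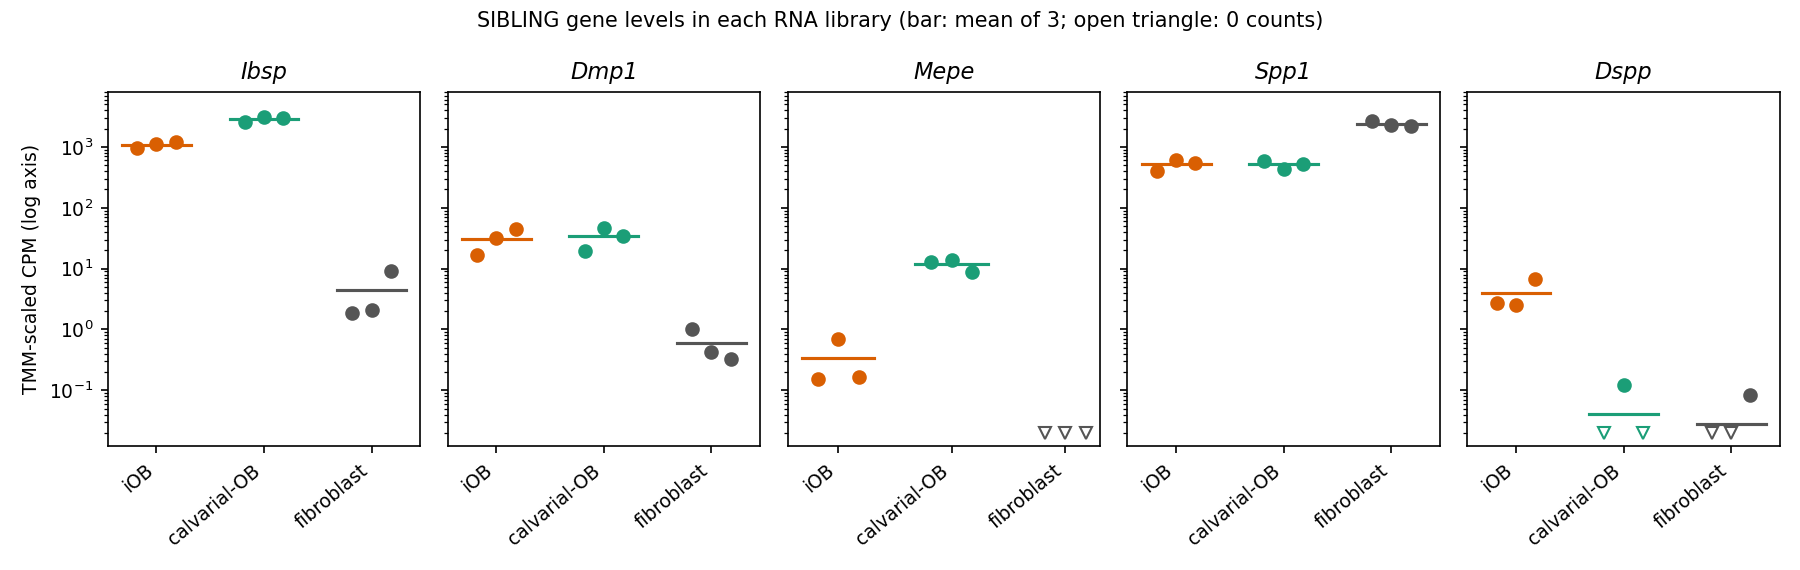
Level of the 4 members and of Dspp in every library, in TMM-scaled CPM on a log axis, for iOB, calvarial-OB and fibroblasts; each point is 1 library, each bar a group mean of 3 and each open triangle a library with 0 counts. Ibsp and Dmp1 stand far above the fibroblasts in both osteoblast groups, Mepe is at 8.79 to 14.1 CPM in calvarial-OB and at 0 counts in all fibroblast libraries, and Spp1 is highest in fibroblasts.

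In iOB against fibroblasts, 3 of the 4 genes (Ibsp, Dmp1 and Mepe) were called higher, where 22.7% of all tested genes were called higher, and 1 (Spp1) was called lower, where 20.6% were. In calvarial-OB against fibroblasts the same split held, with 28.4% of tested genes higher and 27.4% lower. In iOB against calvarial-OB, Ibsp and Mepe were called lower, where 24.1% of tested genes were, and no member was higher, where 24.7% of tested genes were. By the fitted log2 fold changes, all 4 members changed at least 2-fold in both comparisons with fibroblasts. For Mepe in iOB a change of this size is not secure, since it rests on 8 counts against 0. Its bound was 3.70-fold with all libraries and 1.56-fold without iOB replicate 2. Genes called higher by at least 2-fold made up 13.8% of tested genes in iOB and 15.0% in calvarial-OB, and those called lower by as much made up 5.39% and 9.27%. In iOB against calvarial-OB, Ibsp and Mepe were also lower by at least 2-fold, as 9.55% of tested genes were, and 9.85% were higher by as much. The groups of libraries did not overlap for any member against fibroblasts, with 3 higher and 1 lower, although 2 of the 3 Mepe values in iOB lie under the fibroblast floors. Such genes were 30.2% (higher) and 32.8% (lower) of all tested genes in iOB, and 30.2% and 30.3% in calvarial-OB. Between iOB and calvarial-OB the libraries did not overlap for Ibsp and Mepe, both lower in iOB, as for 27.3% of tested genes, and 28.1% were higher without overlap. The first 2 comparisons share the fibroblast libraries, so their likeness is not independent evidence. Counts of called genes in the lists below are to be read against the shares of all tested genes given here. Those from the authors' tables are to be read against the shares given with the members there.

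**Figure D2:**
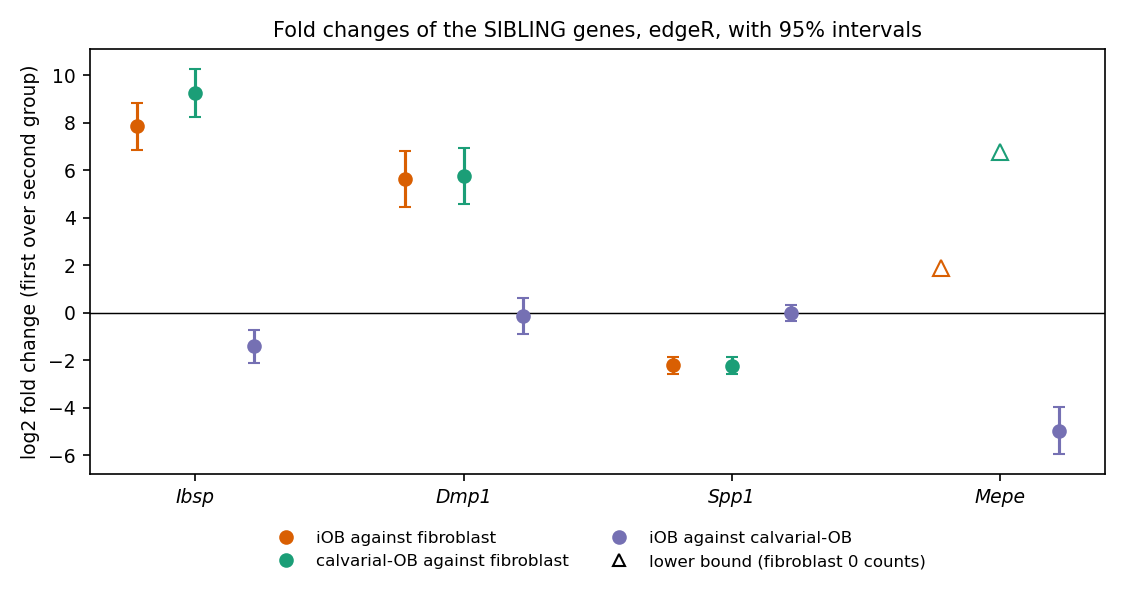
Log2 fold change of Ibsp, Dmp1, Spp1 and Mepe in the 3 comparisons (edgeR, points with 95% intervals; open triangles are lower bounds for Mepe against fibroblasts, which had 0 counts). Ibsp and Dmp1 lie far above 0 against fibroblasts and Spp1 below it, while between iOB and calvarial-OB the intervals of Ibsp and Mepe lie below 0.

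The proportions of the members within a library do not depend on library scaling, and differences between groups in a count ratio do not depend on gene length. The log2 ratio of Ibsp to Spp1 counts, the promoter of mineral over the inhibitor, averaged 1.08 ± 0.19 in iOB, 2.49 ± 0.36 in calvarial-OB and -9.46 ± 1.37 in fibroblasts (SD, n = 3 each, 0.5 added to each count). The difference was 10.54 log2 units for iOB against fibroblasts, 11.95 for calvarial-OB against fibroblasts and -1.41 for iOB against calvarial-OB. Without fibroblast replicate 3, the library with the most Ibsp, the first 2 differences were 11.32 and 12.73. The log2 ratio of Dmp1 to Ibsp counts, the osteocyte over the osteoblast product, was -5.24 ± 0.56 in iOB, -6.50 ± 0.51 in calvarial-OB and -2.54 ± 1.93 in fibroblasts. The iOB value stood above that of calvarial-OB by 1.26 log2 units. Against fibroblasts the difference in this ratio was -2.70 for iOB and -3.96 for calvarial-OB, or -1.85 and -3.11 without fibroblast replicate 1 and -3.75 and -5.01 without fibroblast replicate 3. The log2 ratio of Mepe to Dmp1 counts, both osteocyte products, was -6.37 ± 1.07 in iOB and -1.44 ± 0.75 in calvarial-OB, a difference of -4.93 log2 units. Fibroblast values of this ratio, -3.50 ± 0.90, come from 0 Mepe counts and give no comparison of their own. The groups did not overlap in any of the 9 comparisons, but this does not carry equal weight. For Mepe to Dmp1 against fibroblasts it depends on the value added to 0 counts. There the calvarial-OB difference was 2.06 with 0.5 added and 1.20 with 1 added. For Dmp1 to Ibsp, iOB replicate 3 (-4.73) lay close to fibroblast replicate 3 (-4.63). With 3 libraries against 3 a two-sided exact permutation test cannot go below 0.10. Each of the 9 comparisons gave this value before and after Benjamini-Hochberg adjustment.

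In cells sorted for the osteoblast-lineage reporter, 3 of the 4 members were called higher than in fibroblasts in the authors' deposited table, where 23.7% of genes with an adjusted p were called higher, and none was called lower, where 21.7% were. In the authors' deposited table for iOB GFP+ against fibroblasts, Ibsp had a log2 fold change of 10.19 ± 0.68 (SE, DESeq2 adjusted p = 1.3e-48), the 5th highest of 17737 genes listed. In the authors' deposited table for unsorted iOB it was 6.54 ± 0.55 (DESeq2 adjusted p = 6.7e-31), the 24th highest of 17982. Dmp1 stood at 8.67 ± 0.68 in the authors' deposited table for iOB GFP+ (DESeq2 adjusted p = 4.7e-35), the 8th highest, and at 4.83 ± 0.52 in that for iOB (DESeq2 adjusted p = 4.4e-19). Ibsp and Dmp1 thus ranked among the genes with the largest fold increases of sorted cells over fibroblasts, which is not a rank of their level.

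Mepe, near the detection limit in unsorted iOB, had a log2 fold change of 5.32 ± 0.90 in the authors' deposited table for iOB GFP+ (DESeq2 adjusted p = 2.2e-08) and 1.87 ± 0.69 in that for iOB (DESeq2 adjusted p = 0.023). Since Mepe had 0 counts in every fibroblast library of the count table, the 1.87 is a fitted value and not a measured fold. The same may hold for the 5.32, so the sizes of the 2 values are not compared. Spp1 was the member whose sign differed. In the authors' deposited table for iOB GFP+ it had a log2 fold change of 0.47 ± 0.33 and was not called (DESeq2 adjusted p = 0.26), against -2.16 ± 0.17 in that for iOB (DESeq2 adjusted p = 5.7e-35). In the authors' deposited table for unsorted iOB the same 3 were called higher, as 19.9% of genes with an adjusted p were, and Spp1 was called lower, as 15.0% were. The fold changes of the iOB table are moderated towards 0, both tables use fibroblasts as the baseline, and the difference between sorted and unsorted cells was not tested. Which fibroblast libraries entered the iOB GFP+ table is not given in the sources used here.

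**Figure D3:**
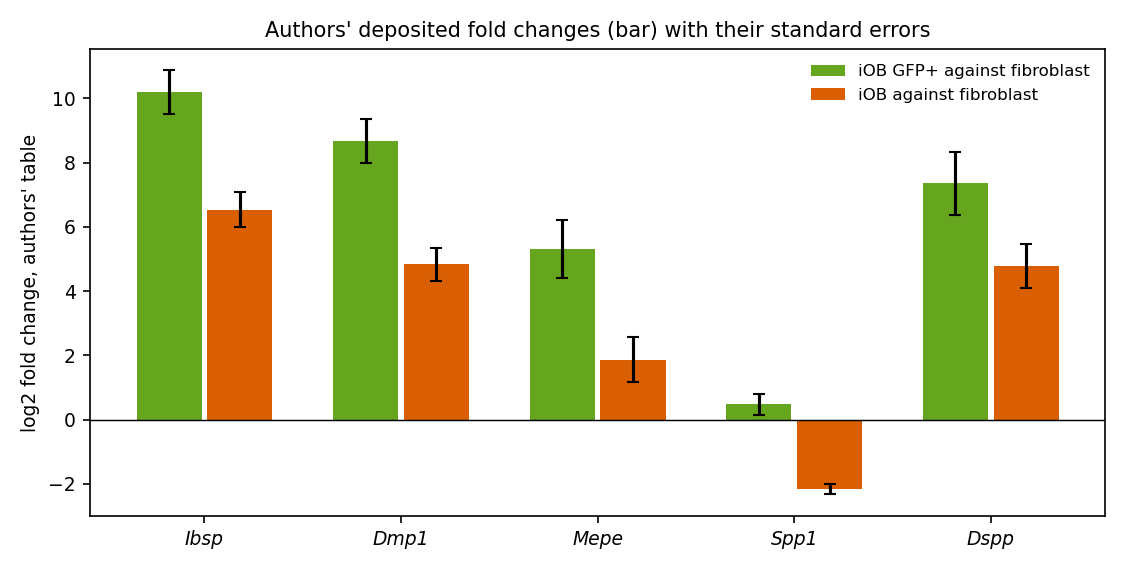
Log2 fold changes against fibroblasts from the authors' deposited tables for iOB GFP+ and for iOB (bars, with the authors' standard errors), for the 4 members and Dspp. Ibsp, Dmp1 and Mepe have larger positive values in iOB GFP+ than in iOB, and Spp1 is at 0.47 in iOB GFP+ and at -2.16 in iOB. Mepe had 0 counts in every fibroblast library of the count table, so its iOB value is fitted and not a measured fold.

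Dspp, the fifth gene of the cluster, encodes the main noncollagenous precursor protein of dentin and is best known from odontoblasts. It had 18, 22 and 41 counts in the iOB libraries (2.72, 2.52 and 6.71 CPM), 0, 1 and 0 counts in calvarial-OB, and 0, 0 and 1 counts in the fibroblast libraries. All 3 iOB libraries were clear of the other 6. The summed level in iOB was 120 times that in calvarial-OB (95% interval 20.9 to 4799, counting error only) and 112 times that in fibroblasts (19.6 to 4489). Both ratios rest on 1 count in the lower group. Without calvarial-OB replicate 2 the first is at least 29.7-fold, and without calvarial-OB replicate 3 it is 62.0. Without fibroblast replicate 3 the second is at least 22.3-fold, and without fibroblast replicate 1 it is 72.2. edgeR called Dspp higher in iOB in both comparisons (adjusted p = 6.2e-05 against calvarial-OB and 6.6e-05 against fibroblasts). In calvarial-OB against fibroblasts, 1 count stood against 1, a ratio of 0.936 with an interval of 0.0119 to 73.4. The authors' deposited table for iOB GFP+ gave Dspp a log2 fold change of 7.35 ± 0.98 (DESeq2 adjusted p = 6.5e-13). Mepe and Dspp therefore had opposite patterns in iOB and calvarial-OB although they lie in 1 cluster.

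The tested genes on either side of the cluster differed from fibroblasts by less than Ibsp, Dmp1 and Spp1 did. Of 7 tested neighbours, with Dspp counted among them, 5 were higher and 2 lower in iOB than in fibroblasts, with a median log2 fold change of 0.81, against -0.04 over all tested genes. Sparcl1, a matrix protein related to osteonectin, was higher by 1.65 ± 0.24 in iOB and 1.82 ± 0.24 in calvarial-OB than in fibroblasts (edgeR adjusted p = 1.8e-04 and 5.0e-05). Klhl8, farther upstream, was higher by 1.26 ± 0.15 in iOB (edgeR adjusted p = 3.8e-05). Pkd2, which follows Spp1 and encodes a cation channel, had a log2 fold change of -0.40 ± 0.10 in iOB (edgeR adjusted p = 0.0081) and -1.30 ± 0.11 in calvarial-OB (edgeR adjusted p = 1.0e-06). Aff1, at the upstream end, was lower as well, at -0.67 ± 0.09 in iOB and -1.45 ± 0.09 in calvarial-OB (edgeR adjusted p = 1.0e-04 and 1.8e-07). In calvarial-OB against fibroblasts 2 of the 7 were higher and 2 lower, near the 28.4% and 27.4% of all tested genes. Set against calvarial-OB, iOB had 5 of them higher and none lower, and in the authors' deposited table for iOB GFP+ 3 of 7 were higher and 2 lower.

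Among the transcription factors that control osteoblast genes, Runx2, the master factor of bone formation, averaged 432 CPM in iOB, 109 CPM in calvarial-OB and 70.2 CPM in fibroblasts. Sp7 (osterix), which acts downstream of Runx2, averaged 605, 56.9 and 3.51 CPM in the same groups, and Dlx5, a homeodomain factor known to act on the Ibsp promoter, averaged 206, 15.1 and 0.944 CPM. All 3 were higher in iOB than in fibroblasts, by 2.62 ± 0.11, 7.45 ± 0.31 and 7.80 ± 0.19 in log2 fold change (edgeR adjusted p = 4.0e-08, 3.0e-08 and 4.4e-10). They were also higher in iOB than in calvarial-OB, by 1.99 ± 0.11, 3.41 ± 0.24 and 3.78 ± 0.13 (edgeR adjusted p = 1.4e-07, 8.1e-07 and 4.9e-09). Ibsp and Mepe had the other order, lower in iOB than in calvarial-OB. The delivered genes are not named in the labels, and counts of a delivered factor may include transcripts of the vector. Dlx3, a homeodomain factor of the same family, was lower in iOB than in calvarial-OB (log2 fold change -1.39 ± 0.29, edgeR adjusted p = 0.0021), as Ibsp was. Of 18 listed regulators, 10 were higher and 1 lower in iOB than in fibroblasts (median log2 fold change 0.96, against -0.04 over all genes), and 13 were higher and 1 lower in calvarial-OB (1.22, against 0.02). The edgeR calls of Hey1, Fosl1, Fos and Dlx6 in iOB were lost with 1 library left out (adjusted p up to 0.16, 0.14, 0.064 and 0.059), and those of Msx2 and Vdr were gained without fibroblast replicate 1 and 3. In calvarial-OB, Fos was lost without fibroblast replicate 1 (edgeR adjusted p = 0.054). Jun was gained as higher against fibroblasts in both cell populations under several alternatives, and in iOB against calvarial-OB without calvarial-OB replicate 1 (edgeR adjusted p = 0.0025). In iOB against calvarial-OB 7 were higher and 6 lower, where 24.7% and 24.1% of all tested genes were. Of these calls, Atf4, Fosl1, Lef1, Msx2 and Vdr were each lost when 1 library or another was left out (edgeR adjusted p up to 0.27, 0.15, 0.064, 0.064 and 0.15). For iOB GFP+, 13 of 18 were higher and 1 lower in the authors' deposited table.

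The enzymes that modify SIBLING proteins after synthesis were measured in the same libraries. Fam20c, the Golgi kinase that phosphorylates them, averaged 55.0 CPM in iOB, 33.7 CPM in calvarial-OB and 10.2 CPM in fibroblasts. It was higher in iOB than in fibroblasts by 2.44 ± 0.15 and than in calvarial-OB by 0.71 ± 0.14 in log2 fold change (edgeR adjusted p = 2.9e-07 and 0.0014). Its partner Fam20a, a pseudokinase, was lower than in fibroblasts, with log2 fold changes of -0.79 ± 0.13 in iOB and -2.34 ± 0.14 in calvarial-OB (edgeR adjusted p = 4.6e-04 and 1.0e-07). Phex, the peptidase that degrades the acidic peptide of Mepe and Spp1 and is lost in X-linked hypophosphatemia, averaged 8.10 CPM in iOB, 67.9 CPM in calvarial-OB and 0.398 CPM in fibroblasts. Its log2 fold change was 4.11 ± 0.55 in iOB and 7.15 ± 0.47 in calvarial-OB against fibroblasts (edgeR adjusted p = 8.8e-05 and 2.1e-07), or 5.54 and 8.54 without fibroblast replicate 3. For iOB against calvarial-OB it was -3.03 ± 0.33 (edgeR adjusted p = 2.0e-05). Phex and Mepe thus both stood lower in iOB than in calvarial-OB.

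Bmp1, the protease that cuts Dmp1 and Dspp into their active fragments, was not called in iOB against fibroblasts (log2 fold change -0.03 ± 0.13, edgeR adjusted p = 0.89) and was lower in calvarial-OB (-0.47 ± 0.13, edgeR adjusted p = 0.0098). Tll1, a protease of the same family, was higher by 1.54 ± 0.27 in iOB and 2.87 ± 0.26 in calvarial-OB (edgeR adjusted p = 7.0e-04 and 2.2e-06). Among the matrix metalloproteinases, Mmp2 was higher by 0.81 ± 0.11 in iOB (edgeR adjusted p = 7.1e-05), while Mmp9 was higher by 3.08 ± 0.50 (edgeR adjusted p = 3.8e-04), or by 4.05 without fibroblast replicate 1. Over the list, 8 of 14 tested enzymes were higher and 2 lower in iOB than in fibroblasts (median 0.72, against -0.04 over all genes), 6 were higher and 5 lower in calvarial-OB (0.48, against 0.02), and 7 were higher and 4 lower in iOB than in calvarial-OB. Among those lower in calvarial-OB, Mmp14 was lost with upper-quartile normalization, with only these 2 groups fitted and without several single libraries (edgeR adjusted p up to 0.11), and Mmp13 without fibroblast replicate 3 or calvarial-OB replicate 2 or 3 (up to 0.094). The call of Mmp13 in iOB was also lost without fibroblast replicate 3 or iOB replicate 2 or 3 (edgeR adjusted p up to 0.11). Without fibroblast replicate 1, Mmp9 was called higher in calvarial-OB (2.08, edgeR adjusted p = 0.0063) and Mmp3 in iOB (1.48, edgeR adjusted p = 0.0014). For iOB against calvarial-OB, Bmp1 and Pcsk5 were lost without iOB replicate 1 (edgeR adjusted p = 0.066 and 0.063), and Ctsk was called lower with upper-quartile normalization (0.021) and with only the 2 groups fitted (0.031). In the authors' deposited table for iOB GFP+ 8 of 14 were higher and 1 lower, with log2 fold changes of 6.64 for Phex, 4.52 for Fam20c and 1.61 for Bmp1.

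In iOB against fibroblasts 2 of 10 tested receptor chains were called higher and 2 lower, near the 22.7% and 20.6% of all tested genes. The integrin chains αv (Itgav) and β3 (Itgb3), which together bind the Arg-Gly-Asp motif of osteopontin and bone sialoprotein, had log2 fold changes of -0.40 ± 0.16 and 0.23 ± 0.22 in iOB against fibroblasts, and neither was called (edgeR adjusted p = 0.063 and 0.43). With only the iOB and fibroblast libraries in the fit, Itgav was called lower and Itgb5 and Itga9 higher (edgeR adjusted p = 0.012, 0.011 and 0.029). In calvarial-OB, Itgav was lower (-0.65 ± 0.16) and Itgb3 higher (0.75 ± 0.22) than in fibroblasts (edgeR adjusted p = 0.0042 and 0.011). Cd44, a hyaluronan receptor that also binds osteopontin, was at -0.18 ± 0.15 in iOB (edgeR adjusted p = 0.35) and lower, at -0.62 ± 0.15, in calvarial-OB (edgeR adjusted p = 0.0040). Itga4, a chain of the leukocyte integrin α4β1 that binds osteopontin, was higher by 3.42 ± 0.19 in iOB and 2.97 ± 0.19 in calvarial-OB (edgeR adjusted p = 1.4e-07 and 1.9e-07). The macrophage markers described with Spp1 were higher in the same libraries, and their part in the Itga4 value was not tested. Itga8, whose integrin also binds osteopontin, was higher by 1.42 ± 0.20 and 1.75 ± 0.20, and Itga5, a chain of the fibronectin receptor, was lower, at -0.94 ± 0.14 and -1.27 ± 0.14, in iOB and in calvarial-OB (edgeR adjusted p between 1.1e-05 and 1.9e-04). The median log2 fold change of the 10 was 0.23 in iOB, against -0.04 over all genes. In calvarial-OB 3 were higher and 4 lower (-0.25, against 0.02), and without calvarial-OB replicate 1 Itgb5 and Itga9 were also called lower (edgeR adjusted p = 0.0046 and 0.021). For iOB against calvarial-OB, 4 were called higher and none lower (0.29, against -0.03), but this split depended on the settings. Itgb3 was called lower in iOB with upper-quartile normalization, with only the 2 groups fitted and without iOB replicate 2 (edgeR adjusted p = 0.037, 0.033 and 0.031). Cd44 and Itga4, both among the higher chains, were lost with upper-quartile normalization (edgeR adjusted p = 0.062 and 0.070) and without single libraries (up to 0.081 and 0.12), and Itgb5 without calvarial-OB replicate 2 (0.051). Without calvarial-OB replicate 3, Itgav was called higher in iOB (edgeR adjusted p = 0.0086).

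**Figure D4:**
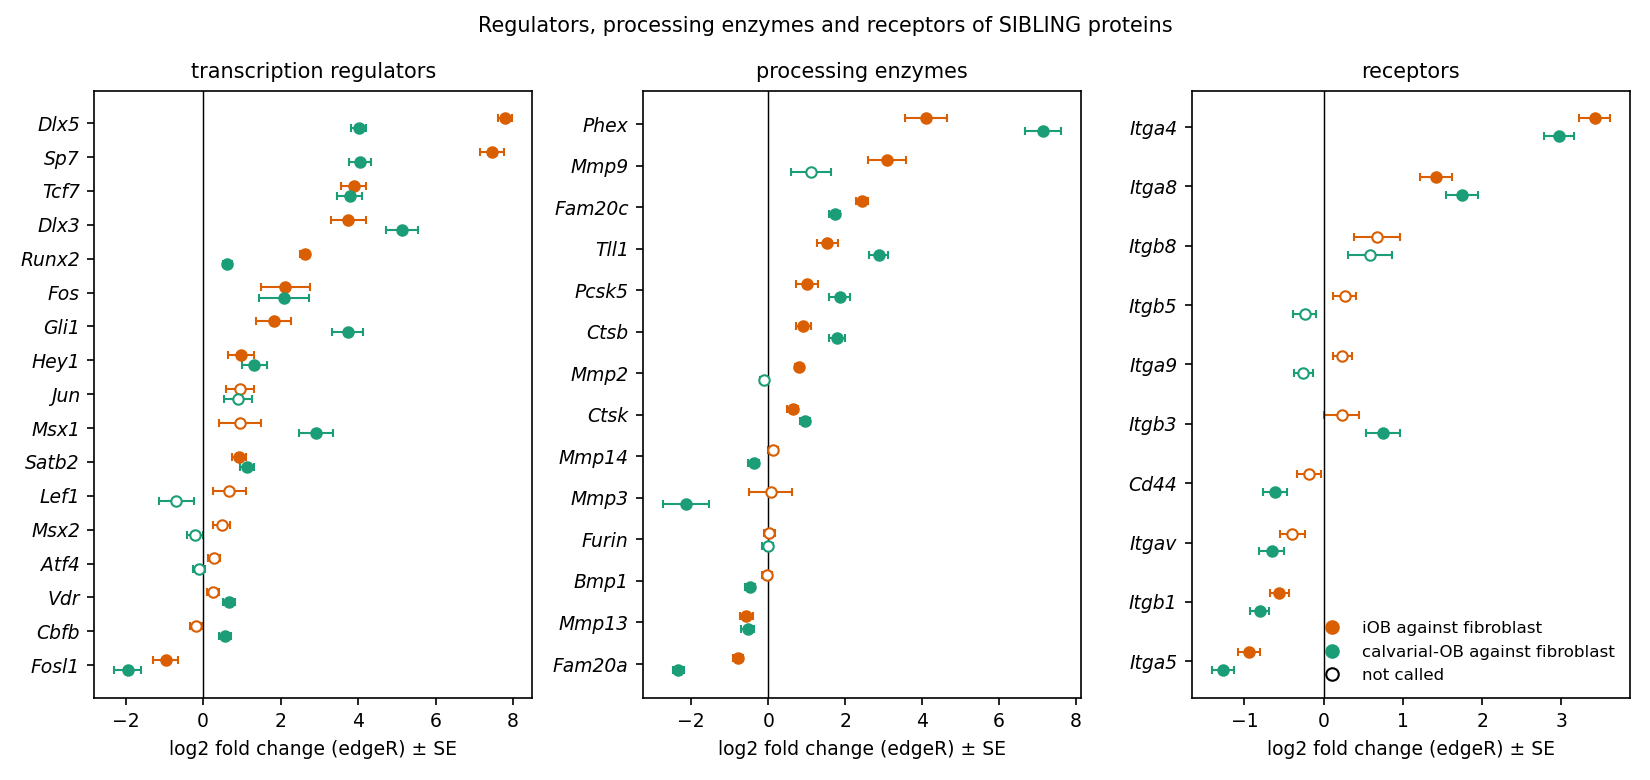
Log2 fold changes (edgeR, with SE) of the listed transcription regulators, processing enzymes and receptors in iOB against fibroblasts and in calvarial-OB against fibroblasts; filled points were called at an adjusted p below 0.05 and open points were not. Dlx5, Sp7, Phex and Itga4 stand to the right in both comparisons, and Itga5 and Fam20a to the left; Dlx6, with 0 fibroblast counts, and F2 and Itgb6, which were not tested, are left out.

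Most other genes of mineralizing matrix were called, and more of them were higher than lower. Of 18 tested, 12 were higher and 4 lower in iOB than in fibroblasts, with a median log2 fold change of 0.70, and 11 were higher and 4 lower in calvarial-OB, with a median of 1.24. In iOB the edgeR calls of Col1a1, Dcn, Enpp1 and Slc20a1 were lost when 1 library or another was left out (adjusted p up to 0.064, 0.10, 0.078 and 0.078). Alpl, the alkaline phosphatase that frees phosphate for mineral, averaged 898 CPM in iOB, 262 CPM in calvarial-OB and 36.2 CPM in fibroblasts. It was higher in iOB than in calvarial-OB by 1.77 ± 0.18 (edgeR adjusted p = 9.7e-06), the opposite of Ibsp. The osteocalcin genes Bglap and Bglap2, whose near-identical copies may share reads, were higher in iOB than in fibroblasts by 8.93 ± 0.39 and 8.59 ± 0.27 in log2 fold change (edgeR adjusted p = 4.0e-08 and 4.5e-09), or 10.05 for Bglap without fibroblast replicate 3. Biglycan (Bgn), a small proteoglycan, was lower in iOB, with log2 fold changes of -1.79 ± 0.14 against fibroblasts and -1.07 ± 0.14 against calvarial-OB (edgeR adjusted p = 1.4e-06 and 6.9e-05). Between iOB and calvarial-OB, 7 of the 18 were higher and 6 lower in iOB, where 24.7% and 24.1% of all tested genes were.

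Osteocyte genes did not all move one way between iOB and calvarial-OB. Of 9 tested osteocyte markers, 6 were higher and none lower in iOB than in fibroblasts (median 2.44), and 6 were higher and 1 lower in calvarial-OB (1.73). In iOB against calvarial-OB 4 were higher and 5 lower (-0.60). The call of Ackr3 in iOB against fibroblasts was lost when 1 library or another was left out (edgeR adjusted p up to 0.12). Against fibroblasts, Ackr3 was called lower in calvarial-OB without calvarial-OB replicate 1, and Pdpn without fibroblast replicate 2 (edgeR adjusted p = 0.0042 and 0.032). Ptprz1, a receptor phosphatase used as an osteocyte marker, averaged 3.96 CPM in iOB and 52.7 CPM in calvarial-OB, or -3.73 ± 0.28 as a log2 fold change (edgeR adjusted p = 1.3e-06). Phex and Mepe had the same order. The 4 markers higher in iOB than in calvarial-OB were Hyou1, Pdpn, Ackr3 and Fam20c. They averaged 164, 137, 58.0 and 55.0 CPM in iOB, against 98.5, 77.4, 23.2 and 33.7 CPM in calvarial-OB. Sost, the gene of the mature osteocyte product sclerostin, had 1, 1 and 0 counts in the iOB libraries, 261, 48 and 89 in calvarial-OB and 0 in every fibroblast library, so that its calvarial-OB level rests largely on replicate 1 (31.6 CPM, against 5.88 and 5.79 CPM). Fgf23, the phosphate-regulating hormone of osteocytes, held at most 3 counts summed over any group and was not tested. The summed level of the list was 440.1 to 446.8 CPM in iOB, 359 to 447 CPM in calvarial-OB and 318 to 351 CPM in fibroblasts. In iOB and fibroblasts most of it was Hyou1 and Pdpn, which fibroblasts also held. Hyou1 had 156 to 170 CPM in iOB and 165 to 196 CPM in fibroblasts, and Pdpn 133 to 140 CPM and 71.5 to 107 CPM. The sum therefore says little about Sost, Phex or Ptprz1 in iOB.

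The genes whose levels followed each member most closely over the 9 libraries were read as Pearson's r of log2 CPM, a description in which all points share the 3 groups. For Ibsp they were Gprc5b (0.995), Gm11545 (0.994), Kcnk13 (0.991), Havcr2 (0.990) and Col13a1 (0.990). For Dmp1 they were Asxl3 (0.992), Rpia (0.988), Camkk2 (0.984), Clec4a2 (0.983) and Ms4a6b (0.982). For Mepe they were the collagen chain Col3a1 (0.995), Heyl (0.992), Kazald1 (0.991), Slc1a5 (0.990) and Nagk (0.990). For Spp1 they were Nck2 (0.992), Kdm5b (0.989), Plekhh2 (0.988), Uncx (0.988) and Spats2 (0.983). No gene appeared on 2 of these lists. Among the members themselves r was 0.96 for Ibsp with Dmp1, -0.97 for Ibsp with Spp1, -0.95 for Dmp1 with Spp1, 0.74 for Ibsp with Mepe, 0.66 for Dmp1 with Mepe and -0.63 for Spp1 with Mepe.

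Markers of other cell types were counted in the same libraries. All 10 osteoblast markers were higher in iOB and in calvarial-OB than in fibroblasts, and their summed level was 29984 to 36123 CPM in iOB, 34756 to 63319 CPM in calvarial-OB and 17553 to 19009 CPM in fibroblasts, most of it Col1a1. Of 10 fibroblast markers, 6 were lower and 3 higher in iOB than in fibroblasts (summed 7043 to 7871 CPM, against 24128 to 27433 CPM), and 5 were lower and 4 higher in calvarial-OB (7964 to 8472 CPM). Of 8 listed osteoclast markers, of a cell type that also makes osteopontin, 4 passed the filter on low counts. All 4 were higher in iOB than in fibroblasts. The summed level of the list was 254 to 295 CPM in iOB, against 119 to 163 CPM in fibroblasts. Most of it was Ctsk, which averaged 219 CPM in iOB and 141 CPM in fibroblasts. Of 8 markers of hypertrophic chondrocytes, which make bone sialoprotein, 3 were higher and 4 lower in iOB, at 757 to 927 CPM in iOB, against 1283 to 1743 CPM in fibroblasts. Of 8 adipocyte markers, 7 were higher and 1 lower in iOB, and all 8 were higher in calvarial-OB. In iOB the calls of Cfd, Cidec and Retn were lost when 1 library or another was left out (edgeR adjusted p up to 0.10, 0.055 and 0.063). In the authors' deposited table for iOB GFP+, sorted for the osteoblast-lineage reporter, 14 of the 15 macrophage genes had no p-value. Their listed log2 fold changes were all positive, with a median of 3.70 over the 15, and Fcer1g, which has a p-value, stood at 4.84 (DESeq2 adjusted p = 9.6e-14). The fold changes of the other 14 carry no test. The sorted libraries are not in the count table, so it cannot be told whether these fold changes rest on 1 library. The part of these other cell types in the levels of the 4 genes was not tested.

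**Figure D5:**
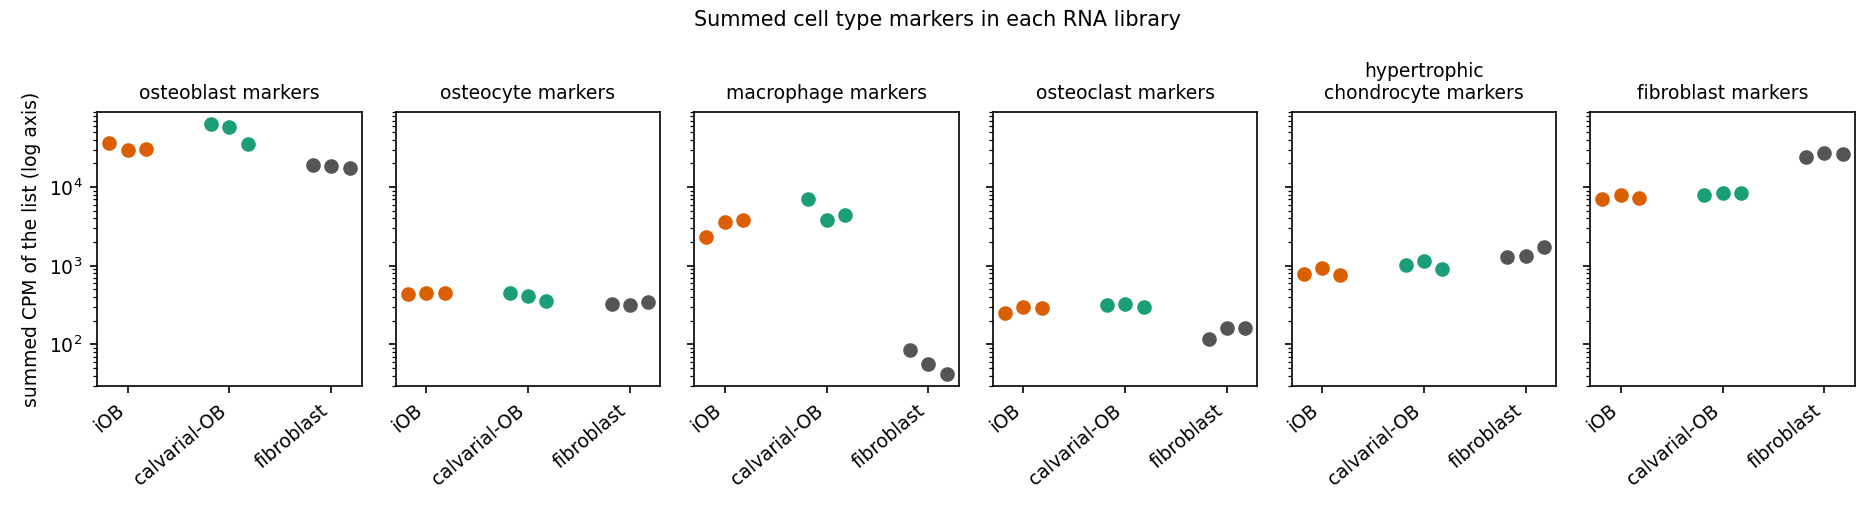
Summed CPM, on a log axis, of the marker lists of osteoblasts, osteocytes, macrophages, osteoclasts, hypertrophic chondrocytes and fibroblasts in each library of iOB, calvarial-OB and fibroblasts; each point is 1 library. Macrophage markers lie at 2333 to 7029 CPM in the 6 iOB and calvarial-OB libraries, against 42.3 to 84.7 CPM in fibroblasts, and fibroblast markers are highest in fibroblasts.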

How the data were processed

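The authors deposited whole-number read counts per gene symbol for 9 libraries, and result tables that, per the file headers, hold per gene a log2 fold change, its error and its p-value before and after adjustment, beside a base mean (normalized signal) and a statistic (score). STAR 2.4.2a, DESeq2 with R 3.2.2, and build mm9 are listed in the submitters' processing notes; the counting tool and strand setting are not given in the sources used here. A DESeq2 refit differed from the deposited iOB log2 fold changes by a median of 0.000338. All 9 libraries were fitted together with edgeR 4.0.16 in R 4.3.3 (quasi-likelihood test, TMM, filterByExpr, group only). SE is the absolute log2 fold change over the square root of F. Calls needed a Benjamini-Hochberg adjusted p below 0.05. The biological coefficient of variation was 14.8%. Alternatives were DESeq2 1.42.0, other normalizations, filters and sample sets. The fit was tested on simulated data. Promoter sequences come from RefSeq (GRCm38.p6), where all 4 genes matched, and were searched with Python 3.11.15.

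The members, the 12 gene lists and the tests were chosen with earlier results of these data known. The 4 members and a fixed set of related genes were always named, with up to 3 genes per list by smallest adjusted p and genes that share a role. Methylation windows were not used here, since they carry no gene names.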

Additional observations from a re-analysis of the deposited data

How the results depend on the processing

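Of 266 alternative values, 264 were labelled the same as the main value. For the members that meant the same side of the threshold, and for the count ratios, which were never called, the same sign. For the numbers of calls it meant a value within a fixed factor of the main one. No called value changed sign. The uncalled differences between iOB and calvarial-OB did: with 1 library left out that of Dmp1 ran from -0.49 to 0.19 and that of Spp1 from -0.12 to 0.16, and with upper-quartile normalization Spp1 was at -0.07. Ibsp in iOB against calvarial-OB was not called with DESeq2 (log2 fold change -1.40, adjusted p = 0.064). Mepe in iOB against fibroblasts had edgeR adjusted p-values of 0.018 to 0.085 when 1 library was left out, and was lost without iOB replicate 2; with only these 2 groups fitted it did not pass the filter and gave no value. Calls numbered 5820 in iOB against fibroblasts (4717 to 5125 with 1 library left out), 7494 in calvarial-OB against fibroblasts (6580 to 7825) and 6561 in iOB against calvarial-OB (5435 to 7205). Whether shared replicate numbers pair the libraries cannot be settled with 3 libraries per group. Same-numbered residuals correlated at -0.15 to 0.15, and different-numbered residuals at -0.20 to 0.15. With a replicate block the 3 counts were 5614, 7364 and 6303, the log2 fold changes of Ibsp were 7.97, 9.40 and -1.43, and no member's call changed; in iOB against calvarial-OB, Vdr and Atf4 lost their calls (adjusted p = 0.059 and 0.069) and Itgb3 was called lower (0.032). Depth limits Mepe in iOB and Dmp1 and Dspp in fibroblasts.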
